A study of Mus musculus with 5 samples.

Results

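Inhibin, activin and bone morphogenetic protein (BMP) signalling was followed in mouse ovarian granulosa cells through 9 genes, of 18194 genes with a single symbol on the array. They were the inhibin subunit genes Inha, Inhba and Inhbb, the ligand gene Bmp2, the antagonist genes Fst and Grem1, the receptor genes Amhr2 and Bmpr1b, and the pseudoreceptor gene Bambi. The members were every probe set whose platform annotation gave one of these symbols alone, 16 probe sets in all. Affymetrix 3′ expression arrays were used, with 1 array for each of 5 groups. The knockout groups carried floxed alleles of both C/EBP genes (CEBPα/β fl/fl fl/fl) together with Cyp19-cre, in which the aromatase gene's promoter, active in granulosa cells, drives Cre recombinase. They were collected 4, 8 and 24 h after human chorionic gonadotropin (hCG), and wild-type groups at 8 and 24 h. All mice had first received equine chorionic gonadotropin (eCG) for 48 h, which drives follicle growth, and hCG triggers ovulation and luteinization. Mice were 23 days old in the 4 and 8 h groups and 24 days old in the 24 h groups. The sources used here do not state whether a sample came from 1 mouse or a pool.

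These genes belong to the transforming growth factor β superfamily. Granulosa cells make inhibin, a dimer of the α-subunit (Inha) with a βA- or βB-subunit (Inhba, Inhbb), and activin, a dimer of β-subunits. Inhibin leaves the ovary and lowers follicle-stimulating hormone from the pituitary, whereas activin acts within the follicle. Follistatin (Fst) binds and neutralizes activin, and gremlin 1 (Grem1) binds BMP ligands such as BMP2 and BMP4. Ligands signal through type I and type II receptor kinases to SMAD transcription factors. In rodents, transcripts of the inhibin subunits are known to decline in granulosa cells after the ovulatory surge.

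With 1 array per group no difference had a replicate check, and no p-value was attached to a single comparison. The size rule asked for intensities at least 2-fold apart, with the higher one at or over a floor of 22, the 40th percentile of all values. Where a gene had several probe sets, that of highest mean log2 intensity stood for it. Different probe sets of a gene, which measure technical spread only, varied around their gene's mean with an SD of 0.28 in the knockout minus wild-type log2 difference at 8 h, and of 0.40 at 24 h. The 18 hybridization controls had SDs of 0.09 and 0.04. Every member's representative probe set lay above the floor on all 5 arrays.

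The targeted genes were lower on the knockout arrays. Cebpa read 40, 19 and 38 in the knockout at 4, 8 and 24 h, against 685 and 352 in wild type at 8 and 24 h. Cebpb (1418901_at) read 42, 1127 and 85 in the knockout, against 7436 and 3976 in wild type. The labels do not state the deleted part of either gene, so these probe sets may lie outside it. The 10 granulosa markers named on the array were all above the floor on every array, with a summed intensity of 42442 in the knockout against 39359 in wild type at 8 h, and 53386 against 47616 at 24 h. Of those 10, Inha, Fst and Amhr2 are themselves members. Markers of other ovarian cells differed. Of 14 endothelial markers, 13 were above the floor at 8 h and all 13 were lower in the knockout by the size rule, with a summed intensity of 729 against 2383. Of 14 stroma and smooth muscle markers, 12 passed as lower and all 14 lay below wild type, with 5381 against 24563. All 7 theca markers above the floor also lay below wild type and 3 passed, with 3729 against 7039. At 24 h, 11 of 12 endothelial markers above the floor lay below wild type and 3 passed, with a summed intensity of 785 in the knockout against 1499 in wild type. Of 14 stromal markers, 13 lay below and 3 passed, with 9664 against 15478. Of 7 theca markers, 5 lay above wild type and 1 passed as higher, with 10644 against 4209. All 9 luteal markers lay below wild type and 6 passed, with 35439 against 65831. No marker was at 0, and the lowest value in the table was 4. In whole preparations such as these, fewer cells of a type and less RNA per cell cannot be told apart.

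**Figure D1:**
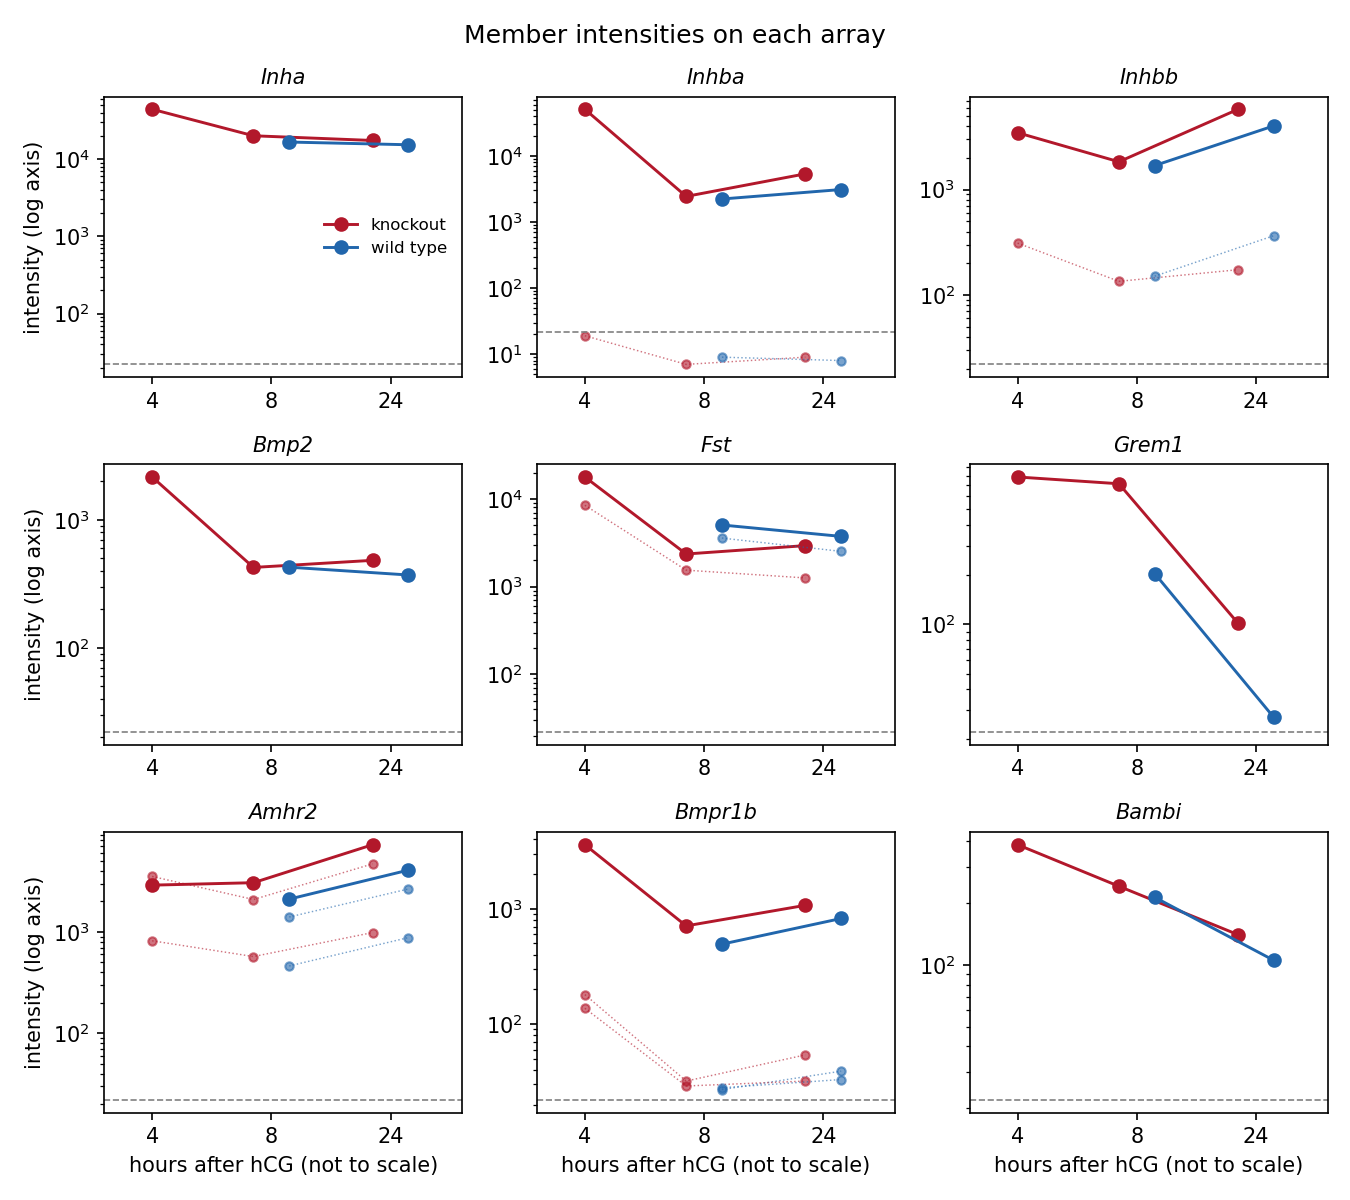
Intensity (log axis) of each member on the 5 arrays against hours after hCG, knockout in red and wild type in blue, 1 array per point. Filled large points with solid lines are the representative probe set, small points with dotted lines the gene's other probe sets, and the dashed line is the floor of 22. Grem1 lay above wild type and Fst below it at both times in the knockout.

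At 8 h, Grem1 was higher and Fst lower in the knockout, and the other 7 members stayed within 2-fold of wild type. So 2 of 9 members passed, 1 in each direction, where 5.63% of all 12924 genes above the floor passed (1.58% higher and 4.05% lower). The members' median log2 difference was 0.18, against -0.01 over all genes. At 24 h Grem1 alone passed, higher in the knockout, where 7.04% of 13052 genes passed (3.13% higher and 3.92% lower). At that time 8 of the 9 members lay above wild type on their representative probe sets. Of these, Inhbb and Bmpr1b each had another probe set below, that of Bmpr1b near the floor (log2 -0.04). Inha, Bmpr1b and Bmp2 differed by 0.46, 0.94 and 0.94 times the probe set SD. The share of all genes above wild type was not counted. The members' median was 0.42, against 0.05 over all genes.

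Grem1, which encodes the BMP antagonist gremlin 1, had the largest genotype difference of the members at both times. It read 714 in the knockout against 203 in wild type at 8 h, a 3.52-fold difference (log2 1.81). At 24 h it read 101 in the knockout against 27 in wild type, 3.74-fold (log2 1.90). These differences were 6.46 and 4.71 times the probe set SD. Of all genes above the floor, 1.43% differed by more at 8 h and 1.29% at 24 h. The wild-type value at 24 h was close to the floor, and the 24 h difference was 1.44 on the log2(value + 16) scale. Grem1 has a single probe set here (1425357_a_at), so no second measurement on the arrays bears on it.

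Over time Grem1 was lower at 24 h than at 8 h by a similar factor in both genotypes. The 24 h value was 7.07-fold lower in the knockout (log2 -2.82) and 7.52-fold lower in wild type (log2 -2.91). The genotype difference therefore shifted by 0.09 between the times. On the log2(value + 16) scale the changes were -2.64 in the knockout and -2.35 in wild type, and the shift was -0.29. At 4 h the knockout read 785. The genes whose log2 profiles over the 4 arrays of 8 and 24 h lay nearest to that of Grem1, among 13315 others, were Adam2, Gsta4 and Chst15. Their root mean square distances were 0.15, 0.23 and 0.34. Adam2 read 205 in the knockout against 58 in wild type at 8 h and 32 against 10 at 24 h. That last value lay below the floor. Gsta4 read 13703 in the knockout against 5480 in wild type at 8 h and 1988 against 711 at 24 h.

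Because the deleted factors bind DNA, the sequences just before the annotated starts of Grem1, the member that passed at both times, and of Inhba, the member with the highest percentile in the knockout array at 4 h, are shown from RefSeq (GRCm38.p6). Each covers 250 bases, 5′ to 3′ on the gene's strand, with motif matches in capitals.
Grem1, chr2:113758649-113758898, minus strand: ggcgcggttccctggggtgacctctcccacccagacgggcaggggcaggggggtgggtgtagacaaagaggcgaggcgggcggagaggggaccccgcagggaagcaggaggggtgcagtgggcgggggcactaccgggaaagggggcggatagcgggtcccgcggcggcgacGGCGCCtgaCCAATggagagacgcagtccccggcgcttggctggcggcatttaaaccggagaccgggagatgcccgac
Inhba, chr13:16011601-16011850, plus strand: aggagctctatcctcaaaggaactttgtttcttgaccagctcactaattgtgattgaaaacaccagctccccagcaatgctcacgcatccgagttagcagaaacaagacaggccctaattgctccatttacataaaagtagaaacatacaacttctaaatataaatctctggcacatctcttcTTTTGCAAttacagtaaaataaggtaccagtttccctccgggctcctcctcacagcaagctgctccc
Windows of 300 bases, 250 before and 50 after the start, were listed for 6 of the 9 members, 8 windows in all, and were searched on both strands. The C/EBP motif TTGCNNAA was in 1 of the 8, that of Inhba, with its first base 67 bases before the start, against 10.8% of all 32851 windows. The annotated Inhba locus begins at base 16004256 of chr13, so the start used for its window lies within the locus. The sequence just before base 16004256 was not searched. The Grem1 window held CCAAT, present in 37.4% of windows and in 3 of the 8, and GGCGCC, a SMAD motif, present in 11.9%. The palindrome TTGCGCAA was in none of the 8 and in 0.183% of all windows. Nor did any hold TGACGT, the cyclic AMP response core (7.51% of windows, and 1.79% for its palindrome TGACGTCA), or GTCTAGAC, the SMAD palindrome (0.213%). TGACGTCA contains TGACGT, and TTGCGCAA is a form of TTGCNNAA. A match is a description of letters and not a bound site.

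Fst, which encodes follistatin, was lower in the knockout at 8 h on both of its probe sets. Its representative probe set (1434458_at) read 2358 in the knockout against 5049 in wild type, 2.14-fold lower (log2 -1.10). The other (1421365_at) read 1543 against 3582, 2.32-fold lower. At 24 h the probe sets parted. The representative read 2939 against 3743 (log2 -0.35), short of the rule, and the other read 1258 against 2527, 2.01-fold lower. Both placed the knockout below wild type at both times. Endothelial and stromal markers were lower on the same arrays, as were theca markers at 8 h. The part of these cell types in the Fst difference was not tested. From 8 h to 24 h the knockout differed by 0.32 on the representative and -0.29 on the other, so its probe sets did not share a direction. Wild type differed by -0.43 and -0.50. The nearest profiles to Fst were those of Adam23, Khdc3 and Olfml1, at distances of 0.04, 0.05 and 0.06. Adam23 read 34 against 69 at 8 h and 39 against 51 at 24 h, close to the floor. Olfml1 read 14 against 29 at 8 h and 17 against 20 at 24 h, with only the 29 above the floor.

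**Figure D2:**
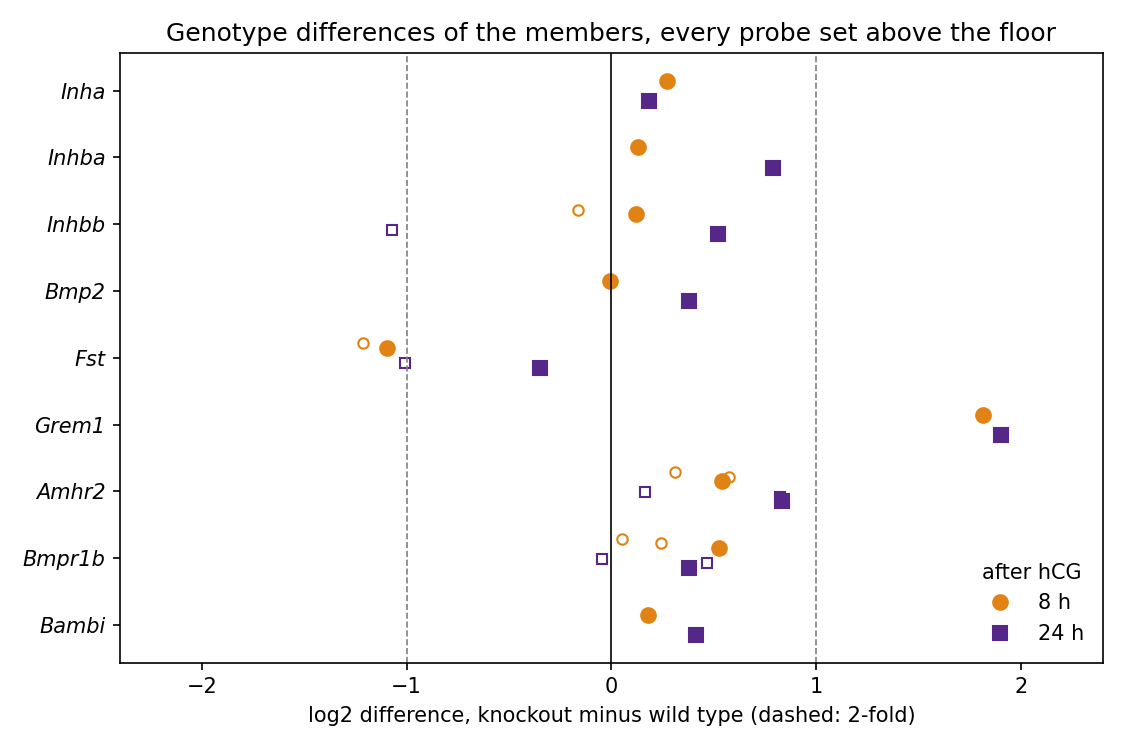
Log2 difference, knockout minus wild type, of each member at 8 h (circles) and 24 h (squares), 1 array per group. Filled symbols are representative probe sets, open symbols the other probe sets above the floor, and dashed lines mark 2-fold. Grem1 lies past 1 at both times, at 1.81 and 1.90, Fst past -1 at 8 h, and the Inhbb probe sets fall on opposite sides of 0.

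The inhibin α-subunit gene Inha was among the brightest probe sets of each array and differed little. It read 20053 in the knockout against 16632 in wild type at 8 h, and 17426 against 15340 at 24 h. These log2 differences of 0.27 and 0.18 were under 1 probe set SD. From 8 h to 24 h it differed by -0.20 in the knockout and -0.12 in wild type.

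The βA-subunit gene Inhba (1422053_at) was nearly level between genotypes at 8 h and farther apart at 24 h, without passing. It read 2441 in the knockout against 2230 in wild type at 8 h (log2 0.13), and 5359 against 3102 at 24 h (1.73-fold, log2 0.79). In the knockout it was 2.20-fold higher at 24 h than at 8 h, which passed the rule, whereas in wild type the difference was 1.39-fold, which did not. The difference between those changes was 0.66, short of 1. A second probe set (1458291_at) stayed between 7 and 19 on all arrays, below the floor, and gave no measure.

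The βB-subunit gene Inhbb was higher at 24 h than at 8 h in both genotypes on its representative probe set (1426858_at). In the knockout it read 5789 at 24 h and 1838 at 8 h, 3.15-fold higher. In wild type it read 4031 at 24 h and 1692 at 8 h, 2.38-fold higher. Its other probe set (1426859_at) gave 1.29-fold in the knockout, with 174 at 24 h and 135 at 8 h, and 2.42-fold in wild type, with 366 at 24 h and 151 at 8 h. Between genotypes at 24 h the probe sets pointed opposite ways. The representative differed by 0.52, and the other was 2.10-fold lower in the knockout (log2 -1.07). With the mean of both, Inhbb lay at -0.28 at 24 h, so no direction between genotypes is given for it.

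Bmp2, a BMP ligand gene, showed no 2-fold difference between genotypes or from 8 h to 24 h. It read 425 in the knockout against 427 in wild type at 8 h, and 483 against 371 at 24 h (log2 0.38).

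Among receptors, Amhr2, the type II receptor for anti-Müllerian hormone, was above wild type on all 3 of its probe sets at both times, without passing the rule. The representative (1438967_x_at) read 3059 in the knockout against 2106 in wild type at 8 h (log2 0.54), and 7255 against 4073 at 24 h (log2 0.83). The second (1457021_x_at) gave 0.57 and 0.82. The third (1427989_at), whose name does not mark it as less specific, gave 0.31 and 0.16. From 8 h to 24 h the representative was 2.37-fold higher in the knockout, which passed, and 1.93-fold higher in wild type, which did not. Without probe sets ending in _x_at or _s_at the knockout change was 0.79 and no longer passed.

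Bmpr1b, a BMP type I receptor, read 710 in the knockout against 493 in wild type at 8 h (log2 0.53), and 1071 against 823 at 24 h (log2 0.38). Its dimmer probe sets gave 0.25 and 0.05 at 8 h, and 0.47 and -0.04 at 24 h. At 27 to 54 on these 4 arrays they lay near the floor.

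Bambi encodes a membrane protein that resembles a type I receptor without its kinase and damps signalling. It read 241 in the knockout against 213 in wild type at 8 h, and 140 against 105 at 24 h (log2 0.18 and 0.42). At 24 h it differed from 8 h by -0.78 in the knockout, short of the rule, and was 2.03-fold lower in wild type. The wild-type call was lost after quantile normalization (-0.96), after median centring (-0.97) and with a pseudocount of 16 (-0.92). A probe set annotated to its pseudogene Bambi-ps1 (1456178_at), added after its values were seen, read 269 in the knockout against 37 in wild type at 8 h, 7.27-fold higher, and 25 against 26 at 24 h. The knockout at 4 h read 28 on it, so the knockout array at 8 h stood alone among the 5.

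Across time, 4 of 9 members passed in the knockout, Inhba, Inhbb and Amhr2 higher and Grem1 lower at 24 h than at 8 h, where 12.1% of 12999 genes passed (6.85% higher and 5.26% lower). In wild type 3 of 9 passed, Inhbb higher and Grem1 and Bambi lower, where 12.0% of 13054 genes passed (5.55% higher and 6.45% lower). The member medians were 0.32 in the knockout and -0.12 in wild type, against 0.07 and 0.00 over all genes. For the difference between the knockout and wild-type changes, 0 of 9 members passed, where 8.13% of 13316 genes passed (5.04% higher and 3.09% lower). The largest were 0.75 for Fst and 0.66 for Inhba.

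The knockout array at 4 h was on another scale, with a median intensity of 54 against 31 or 32 on the others, and has no wild-type partner here. Over genes above the floor, the median difference of the knockout at 8 h from 4 h was -0.78 as deposited and 0.08 after quantile normalization of the 5 arrays. After that scaling, 4 of 9 members were lower at 8 h than at 4 h and none higher, where 29.8% of 13747 genes passed (17.9% higher and 11.9% lower). As deposited, 5 of 9 were lower, Inha being the fifth, where 45.2% of 15198 genes passed (5.51% higher and 39.7% lower).

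Inhba differed most across the early knockout arrays. It read 50892, 2441 and 5359 at 4, 8 and 24 h as deposited, and 25244, 2747 and 6290 after quantile normalization. It was thus 9.19-fold lower at 8 h than at 4 h on the normalized scale. Within each array it stood at the 99.99th percentile of probe sets at 4 h, the 97.56th at 8 h and the 99.14th at 24 h. Fst was 4.21-fold lower at 8 h than at 4 h on that scale, at 11113, 2643 and 3440 over the 3 times, and its second probe set was 3.02-fold lower. Bmp2 was 2.83-fold lower, and Bmpr1b 2.78-fold lower with its dimmer probe sets at 3.47- and 2.93-fold. Inha, Inhbb and Bambi moved by at most 0.06 in size between 4 and 8 h on their representative probe sets. Inha stood at the 99.98th percentile on both arrays, and that scaling goes by rank, so a rise of Inha could hardly show. The other Inhbb probe set gave -0.49. Amhr2 was at 0.93 on its representative and at 0.09 and 0.28 on its other probe sets, and Grem1 was at 0.67. Whether wild type had the same course before 8 h was not analysed here.

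**Figure D3:**
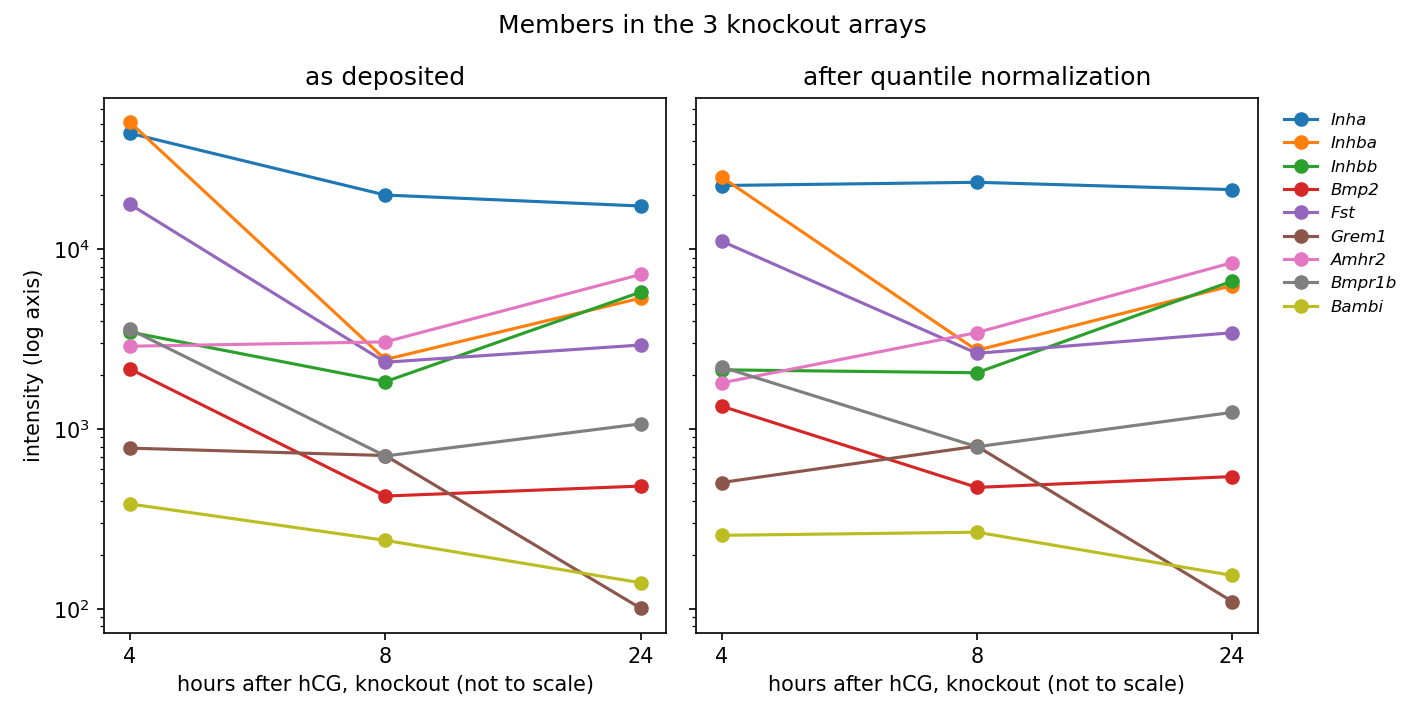
Intensity (log axis) of the 9 members in the knockout at 4, 8 and 24 h, 1 array each, as deposited on the left and after quantile normalization of the 5 arrays on the right. The steep line from 4 h to 8 h is Inhba in both panels, while Inha is lower at 8 h only as deposited.

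The genotype effect averaged over 8 and 24 h was fitted with limma to 4 arrays in an additive model. The single degree of freedom left over measures how far the genotype difference changed between times, not replicate error. None of the 9 members passed an adjusted p of 0.05, where 0.00% of 13316 genes passed. The smallest adjusted p of any gene was 0.254. At an unadjusted p under 0.05 there were 1505 genes (11.3%), among them 4 members. Grem1 had an averaged log2 difference of 1.86 with a standard error of 0.18 (limma adjusted p = 0.272). Amhr2 had 0.69 ± 0.14 (SE, limma adjusted p = 0.338) and Bmpr1b 0.45 ± 0.15 (SE, limma adjusted p = 0.431). Fst had -0.72 ± 0.22 (SE, limma adjusted p = 0.418). The remaining 5 members had limma adjusted p-values from 0.464 to 0.696.

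Beyond the 9 members, the lists held 81 other genes of the pathway on the array. At 8 h, 69 of them were above the floor, of which 8 were lower in the knockout and 0 higher (11.6%, against 5.63% of all genes). At 24 h, 2 of 69 were lower and 0 higher (2.9%, against 7.04%). For the difference between the knockout and wild-type changes, 9 of 69 were higher and 2 lower (15.9%, against 8.13%). That count is given for the main setting only, and some of its genes were weakly placed. Acvrl1 read 23 to 56 and Gdf10 read 24 to 63 on the arrays of 8 and 24 h, near the floor. Tgfbr1 and Skil only just passed. For that difference between changes, 11 of 14 stromal, 5 of 13 endothelial and 4 of 7 theca markers passed as higher. None of those markers passed as lower, and 0 of 10 granulosa markers passed. The genes lower at 8 h were ligands, coreceptors, extracellular modulators and 1 response gene, and none of the signal transducers passed between genotypes at either time. Markers of endothelium, stroma and theca were lower at 8 h on the same arrays, and their part in these differences was not tested.

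Of the ligand genes at 8 h, Bmp4 read 46 in the knockout against 209 in wild type, 4.54-fold lower, and Gdf10 read 24 against 63, 2.62-fold lower. On the log2(value + 16) scale Gdf10 lay at -0.98 and no longer passed. At 24 h Bmp4 read 34 against 31 and Gdf10 read 31 against 33, within 2-fold. Both knockout values of Bmp4 were thus low, wild type was high at 8 h only, and the difference between the knockout and wild-type changes was 2.32. For Gdf10 that difference was 1.30, from values near the floor. The oocyte ligand genes Gdf9 and Bmp15 did not pass. Gdf9 read 1229 in the knockout against 1408 in wild type at 8 h and 732 against 1087 at 24 h. Bmp15 read 81 against 104 at 8 h and 83 against 81 at 24 h. Amh, the ligand of Amhr2, read 250 against 179 and then 431 against 486.

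Of the coreceptor genes, Tgfbr3, which encodes betaglycan and helps inhibin bind activin receptors, was 2.26-fold lower at 8 h, at 504 in the knockout against 1138 in wild type. It read 596 against 1125 at 24 h (log2 -0.92). Averaging both of its probe sets gave -0.59 at 8 h, short of the rule. Eng, an endothelial coreceptor, was 2.08-fold lower at 8 h, at 103 against 214, and fell short of the rule on the log2(value + 16) scale (-0.95). It is also one of the endothelial markers.

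The signalling receptors stayed within 2-fold, with a median over the 17 receptor and coreceptor genes, members included, of -0.03 at 8 h and 0.39 at 24 h. Tgfbr1 came nearest to the rule at 24 h, at 6119 in the knockout against 3113 in wild type (1.97-fold), having read 3406 against 3466 at 8 h. Acvrl1 (56 against 30), Acvr2b (189 against 109), Acvr1b (585 against 361) and Acvr2a (618 against 435) were also above wild type at 24 h without passing. Their 8 h differences were -0.52, -0.03, -0.05 and 0.24. The difference between the knockout and wild-type changes passed for Acvrl1 (1.42) and, only just, for Tgfbr1. Acvrl1 lay near the floor, at 23 in the knockout against 33 in wild type at 8 h, where differences are coarse. Bmpr1a differed by 0.09 and 0.18, Bmpr2 by 0.38 and 0.39, and Acvr1 by -0.36 and -0.01 at 8 and 24 h. Tgfbr2 differed by -0.37 and 0.00, and Acvr1c by 0.32 and -0.19.

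**Figure D4:**
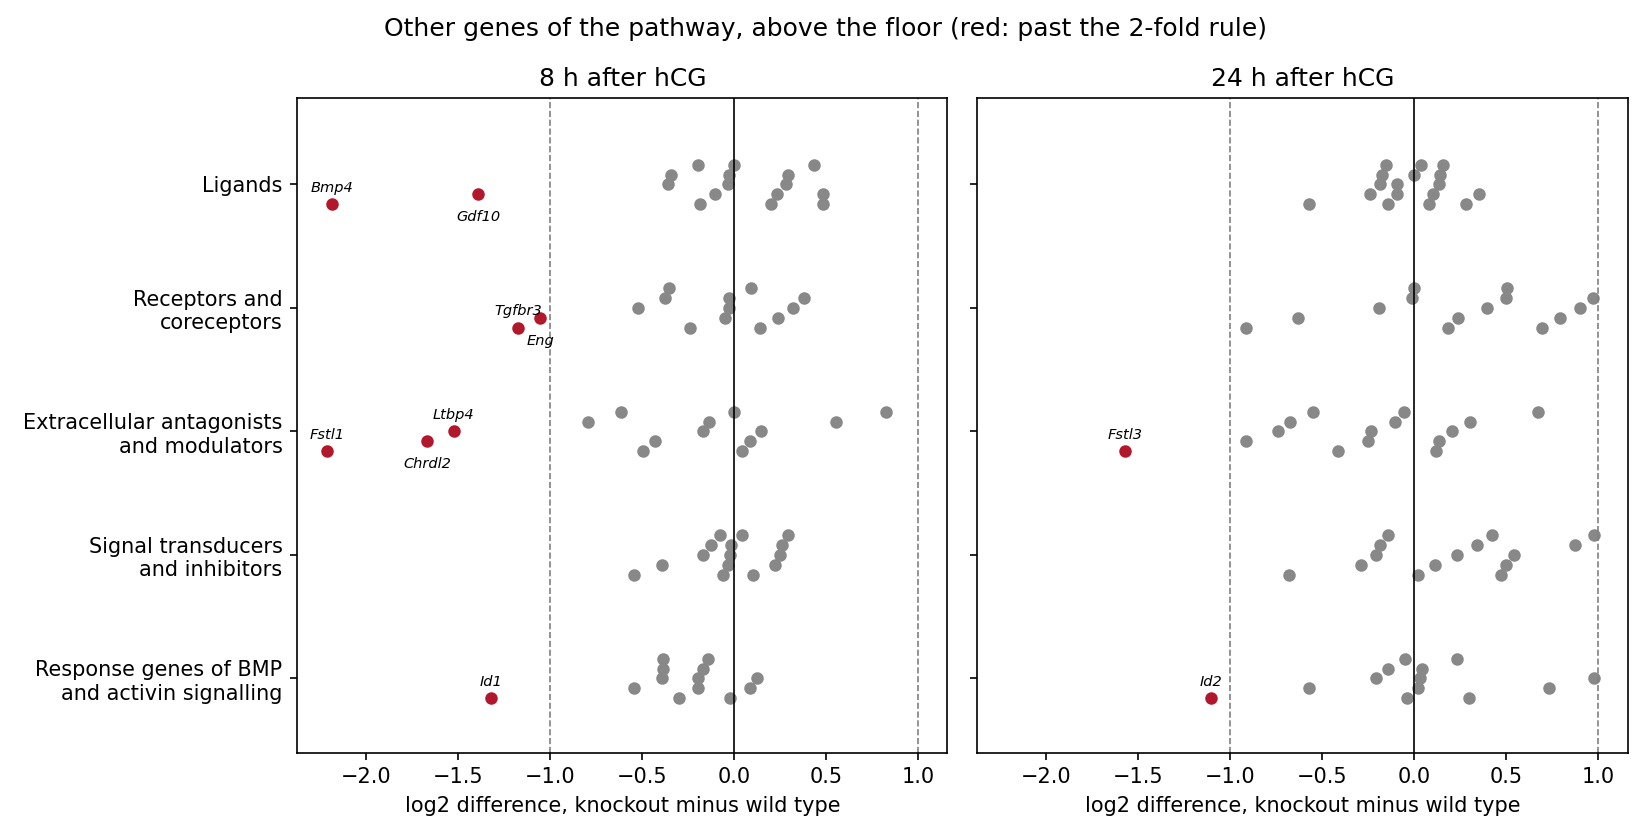
Log2 difference, knockout minus wild type, of the other pathway genes above the floor, by list, at 8 h (left) and 24 h (right), 1 array per group. Red points with names are past the 2-fold rule (dashed lines). They number 8 at 8 h and 2 at 24 h, all lower in the knockout.

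Among extracellular modulators at 8 h, Fstl1, a follistatin-like secreted glycoprotein, read 241 in the knockout against 1119 in wild type, 4.64-fold lower. Chrdl2, a chordin-like gene, read 22 against 70, 3.18-fold lower. Ltbp4, a latent TGFβ binding protein gene, read 40 against 115, 2.87-fold lower. At 24 h these differed by -0.68, -0.06 and -0.55. Fstl3, another activin binder of the follistatin family, passed at 24 h, at 72 in the knockout against 214 in wild type, 2.97-fold lower. It read 76 against 107 at 8 h. Bmper, a secreted BMP binder, lay above wild type at 8 h and below it at 24 h, at 3214 against 1814 and then 850 against 1602. Neither difference passed, but the difference between the changes did, at -1.74. It also passed for Fstl1 (1.54), Chrdl2 (1.61) and, narrowly, Fstl3 (-1.08). Apart from the wild-type value at 8 h, Chrdl2 read 22 to 26 on the arrays of 8 and 24 h, near the floor.

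The SMAD genes did not pass at either time. The receptor-activated Smad1 differed by -0.12 at 8 h and -0.68 at 24 h, Smad2 by 0.29 and -0.29, Smad3 by -0.01 and 0.87, and Smad5 by 0.10 and 0.54. The common partner Smad4 differed by 0.26 and 0.47. Inhibitory Smad6 and Smad7 lay at -0.39 and -0.17 at 8 h and at -0.14 and -0.20 at 24 h. The median over 15 transducer and inhibitor genes was -0.02 at 8 h and 0.23 at 24 h.

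The inhibitor of DNA binding genes Id1 to Id4 are widely used readouts of BMP signalling. At 8 h Id1 read 337 in the knockout against 841 in wild type, 2.5-fold lower, and Id2 and Id3 both lay at -0.39. At 24 h Id2 read 1862 against 4007, 2.15-fold lower, while Id1 lay at 0.02 and Id3 at 0.73. Id4 differed by -0.20 and 0.03. The Id genes thus did not share a direction at 24 h. Endothelial, stromal and theca markers were lower on the same knockout array at 8 h, and their part in the Id1 difference was not tested. The difference between the knockout and wild-type changes passed for Id1 (1.34) and Id3 (1.12). Smad6, Smad7, Skil and Pmepa1, further response genes, stayed within 2-fold at both times. Skil came nearest at 24 h (2594 against 1317, 1.97-fold), and its difference between the changes only just passed.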

How the data were processed

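Gene expression was measured on 5 arrays, 1 per group, with groups taken from the sample titles. Per the labels' protocols, cRNA was made from 5 ug of total RNA. The table the authors deposited holds probe set intensities. Per the submitters' processing notes, affy and RMA were used, with no version given. The intensities are linear whole numbers and were put on the log2 scale here, so differences are coarse near the floor. The platform annotation gave 1 symbol to 34958 of 45101 probe sets, several to 932 and none to 9211. Of the identifiers, 34754 matched a RefSeq gene table of GRCm38.p6, which updated symbols. Precision is limited by the number of arrays. The size rule, the floor and the limma 3.58.1 fit (R 4.3.3, eBayes with trend, Benjamini-Hochberg) are given with the results. The members and lists were chosen with earlier results of these data known. Named genes were all members, pathway genes past the rule between genotypes, type I and II receptors, receptor-activated and common SMADs above the floor, and the 3 nearest profiles of members past the rule. Gdf9, Bmp15, Amh, Bmper, Smad6, Smad7, Id3, Id4, Skil, Pmepa1 and Bambi-ps1 fall outside it and were chosen after their values were seen. Lists named in the text were those of ligands, receptors, modulators, transducers, response genes and cell type markers. Of further marker lists, 3 of 7 theca, 3 of 9 luteal, 4 of 11 leukocyte, 0 of 12 oocyte, 0 of 8 surface epithelium and 1 of 3 erythroid genes above the floor passed as lower at 8 h in the knockout. In the other direction, 2 of 8 surface epithelium genes and 1 of 11 leukocyte genes passed as higher, and 7 of the 8 surface epithelium genes lay above wild type. Alternatives covered scaling, probe set choice, floor, pseudocount and threshold. The scalings of the knockout array at 4 h, and a floor and probe set choice without it, were added after the data were examined.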

Additional observations from a re-analysis of the deposited data

Results flagged for a closer look

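Fst and Bmp2 pointed opposite ways between genotypes or times on single arrays, and none of these differences was tested. The change of Fst from 8 h to 24 h was 0.32 in the knockout and -0.43 in wild type. The genotype difference of Bmp2 was -0.00677 at 8 h and 0.38 at 24 h. That 8 h value has no settled sign, being 0.025 after quantile normalization and 0.039 after median centring. The change of Bmp2 from 8 h to 24 h was 0.18 in the knockout and -0.20 in wild type. The second Fst probe set gave -0.29 in the knockout, so the sign of that change rests on the probe set chosen.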

How the results depend on the processing

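No paired analysis was possible because each group held 1 array and the labels give no replicate numbers. At a 1.5-fold threshold, 3 members passed between genotypes at 24 h (21.9% of all genes) and 2 for the difference between the changes (22.2%). Over time, 6 passed in the knockout (28.0%) and 5 in wild type (27.8%) at that threshold. At a 3-fold threshold, 1 passed between genotypes at 8 h (2.08%), 2 over time in the knockout (4.13%) and 1 over time in wild type (4.50%). With the mean of all probe sets, the averaged genotype effect of Inhbb in the limma fit turned to -0.15, and Inhba over time in the knockout (0.75) no longer passed. Without probe sets ending in _x_at or _s_at, the averaged genotype effect of Amhr2 was 0.24 in place of 0.69. Its 24 h genotype difference was then 0.16 in place of 0.83. Grem1 at 8 h and 24 h and Fst at 8 h passed under all 8 alternatives of scaling, probe sets, floor and pseudocount, and Fst failed at the 3-fold threshold. Floor settings could not move their values, nor could probe set choice move Grem1, which has a single probe set. No member passed limma's adjusted threshold under any alternative run. As no gene at all passed it in the main fit, this does not set the members apart. Of the other pathway genes at 8 h, 6 to 8 were lower under the same alternatives and 3 at 3-fold, the 6 being without Gdf10 and Eng. Quantile normalization added 2 higher at 24 h.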
